A study of Mus musculus with 6 samples.

Results

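Transcript levels of 10 genes for neuronal membrane proteins that ADAM17 or its relative ADAM10 can cut from the cell surface were compared in mouse brain tissue: App, Aplp1, Aplp2, L1cam, Ncam1, Nrcam, Alcam, Ptprf, Lrp1 and Prnp. They were chosen by name and make up 10 of the 51826 genes measured. All 10 passed the filter on low counts, which left 18956 genes for testing. The tissue is labelled as paraventricular nucleus of the hypothalamus, and messenger RNA was sequenced in 3 libraries from mice whose glutamatergic neurons carry an ADAM17 knockout (KO) and 3 libraries from wild-type mice (WT). Replicates 1 and 2 of each genotype are male and replicate F1 is female, so there are 2 male and 1 female libraries per genotype. The labels name no treatment, no age and no strain, and do not state the driver of the recombination, the deleted exon or whether animals were pooled. They also do not say that replicates are separate animals, so p-values measure the spread between these libraries. The comparison of KO with WT asks how loss of the protease in these neurons affects gene expression.

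Shedding releases the outer part of a membrane protein and leaves a stub that other proteases can process further. APP is the precursor of amyloid beta, and a cut by an alpha-secretase such as ADAM10 or ADAM17 falls inside the amyloid beta sequence, so that this fragment is not formed. APLP1 and APLP2 are its paralogs. L1CAM, NCAM1, NrCAM and ALCAM are adhesion proteins of the immunoglobulin superfamily, PTPRF is the receptor phosphatase LAR, LRP1 is a large endocytic receptor for apolipoprotein E and proteases, and PRNP is the prion protein. Cutting acts on protein, which was not measured here, and in bulk tissue fewer cells of a type and less RNA per cell cannot be told apart.

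The genes lie on 8 chromosomes. RefSeq promoter windows of GRCm38.p6, from 250 bases before to 50 bases after the start of transcription, were found for 9 of the 10 genes (10 windows, L1cam having 2). Their GC content was 60.0% to 74.0%, against a median of 52.7% over all 32851 windows. The GC box, GGGCGG on either strand, was present in all 10 windows and in 35.7% of all windows. The CCAAT box, searched as CCAAT on either strand, was in 4 of the 10 windows and in 37.4% of all. The letters of the TATA box, searched as TATAAA on either strand, were in 1 of the 10 (Prnp) and in 13.6% of all. The Prnp match is TTTATA, on the opposite strand, and the search took no account of the distance to the start of transcription. The windows of the 4 genes with the highest level per transcript length are shown 5′ to 3′ on the gene's strand, with each GC box in capitals, because they show how the 3 paralogs and Prnp differ in the number of these boxes. App has 1 (chr16:85173658-85173957, minus strand), Aplp1 has 2 (chr7:30445533-30445832, minus strand), Aplp2 has 4 (chr9:31211799-31212098, minus strand) and Prnp has 3 (chr2:131909678-131909977, plus strand).
App: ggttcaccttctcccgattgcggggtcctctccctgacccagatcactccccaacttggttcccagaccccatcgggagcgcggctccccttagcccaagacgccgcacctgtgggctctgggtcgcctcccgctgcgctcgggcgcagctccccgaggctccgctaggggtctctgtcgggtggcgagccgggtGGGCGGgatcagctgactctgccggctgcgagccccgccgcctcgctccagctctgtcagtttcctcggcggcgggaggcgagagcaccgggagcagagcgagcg
Aplp1: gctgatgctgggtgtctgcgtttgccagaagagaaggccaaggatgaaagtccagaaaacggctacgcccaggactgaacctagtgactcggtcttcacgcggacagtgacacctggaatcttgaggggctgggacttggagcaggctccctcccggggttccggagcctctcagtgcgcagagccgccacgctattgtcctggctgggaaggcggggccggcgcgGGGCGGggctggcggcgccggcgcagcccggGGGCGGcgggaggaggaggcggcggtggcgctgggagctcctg
Aplp2: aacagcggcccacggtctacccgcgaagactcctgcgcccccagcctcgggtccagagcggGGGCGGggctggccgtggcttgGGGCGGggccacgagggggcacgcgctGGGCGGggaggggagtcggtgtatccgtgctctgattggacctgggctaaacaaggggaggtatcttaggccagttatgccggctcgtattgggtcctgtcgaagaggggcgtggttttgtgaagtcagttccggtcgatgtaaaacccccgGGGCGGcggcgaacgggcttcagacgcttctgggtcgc
Prnp: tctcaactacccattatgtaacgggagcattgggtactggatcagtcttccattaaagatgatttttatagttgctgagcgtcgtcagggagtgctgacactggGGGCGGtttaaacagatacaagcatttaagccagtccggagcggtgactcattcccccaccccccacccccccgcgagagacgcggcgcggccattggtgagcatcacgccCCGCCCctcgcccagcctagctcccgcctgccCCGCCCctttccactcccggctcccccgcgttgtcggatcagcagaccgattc
A match is a description of these letters and was not tied to any value measured here.

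Libraries held between 35114426 and 54421330 counts, and the members had between 2585 counts (Ptprf in KO replicate 1) and 121953 counts (App in WT replicate F1). KO replicate 1 stood apart: mitochondrially encoded genes took 20.6% of its counts, against 7.22% to 9.20% in the other 5 libraries. The log2 fold change of each member is given with and without it. All 6 markers of the paraventricular nucleus were detected, at levels that varied between genes and libraries. Avp stood at 13.4, 30.6 and 54.8 TPM (transcript counts scaled to transcript length and to the sum of each library) in KO replicates 1, 2 and F1 and at 112.8, 24.2 and 157.6 TPM in the same WT replicates. Oxt stood at 22.6, 15.8 and 64.6 TPM in KO and 108.6, 25.1 and 122.1 TPM in WT, and Sim1 at 0.18 to 0.52 TPM in KO and 0.31 to 1.08 TPM in WT. Crh stood at 8.70 to 12.9 TPM in KO and 9.81 to 13.6 TPM in WT. Trh stood at 12.7 to 21.6 and 12.5 to 40.1 TPM in KO and WT, and Otp at 1.14 to 4.41 and 1.98 to 8.80 TPM. In log2 fold change of KO over WT 1 of the 6, Crh, lay above 0 (list median −0.51), and edgeR and DESeq2 called none. Without WT replicate F1, Trh and Otp also lay above 0 (0.10 and 0.050). The vesicular transporter gene Slc17a7, typical of cortex, stood at 341 to 745 TPM in KO and 555 to 670 TPM in WT, above Slc17a6, typical of hypothalamic glutamatergic neurons, at 18.2 to 39.7 TPM in KO and 30.2 to 72.7 TPM in WT. CPM are counts scaled to library size after trimmed-mean (TMM) normalization. Summed marker levels ranged from 975 to 1269 CPM in KO and 1005 to 1230 CPM in WT for astrocytes, from 2944 to 3474 and 3166 to 3584 CPM in KO and WT for oligodendrocytes, from 218 to 280 and 246 to 275 CPM for microglia, and from 310 to 359 and 296 to 346 CPM for endothelial and mural cells. Each of these lists holds 7 genes, none of them at 0 and none called by edgeR. DESeq2 called 1 gene of the microglia list, P2ry12 (log2 fold change of KO over WT 0.87, DESeq2 adjusted p = 0.013), against 0.403% of all genes. In edgeR 5 of the 7 microglia markers lay below 0 (median −0.19). WT replicate F1 stood apart in regional markers. In the order of replicates 1, 2 and F1, the 7 striatum markers summed to 900.2, 1053 and 1169.6 CPM in KO and 1256, 875 and 401 CPM in WT, and the 8 cortex and hippocampus markers to 644, 502 and 443 CPM in KO and 465, 479 and 317 CPM in WT. All 7 and all 8 had log2 fold changes of KO over WT above 0 (medians 0.37 and 0.39), and none was at 0 or called by edgeR or DESeq2. An unadjusted p under 0.05 in edgeR was found for 0 of the 7 and 4 of the 8, against 6.38% of all genes tested. The part of these regional markers in the members' values was not tested.

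Adam17 itself stood at 15.4, 14.6 and 13.9 CPM in the KO libraries, always in the order of replicates 1, 2 and F1, against 17.1, 17.2 and 15.6 CPM in the WT libraries. The KO values lay below the WT values without overlap, as for 7.32% of all genes tested. The difference on the log2 scale, KO minus WT as throughout, was −0.19 (SE 0.11). It did not pass edgeR's quasi-likelihood test (adjusted p = 0.747), and was −0.20 without KO replicate 1. Adam10, the main constitutive alpha-secretase of neurons, stood at 100.8, 87.9 and 88.2 CPM in KO and at 81.6, 79.5 and 84.7 CPM in WT. Its KO values lay above the WT values without overlap, as for 6.61% of all genes tested, but the genotypes overlapped on deposited TPM. The difference of 0.17 (SE 0.10) on the log2 scale was likewise not called (edgeR adjusted p = 0.747). It was 0.10 without KO replicate 1, where Adam10 was highest.

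Per transcript length, the members spanned a wide range of levels. App was the most abundant member at 1444 ± 337 TPM in KO and 1614 ± 37.7 TPM in WT (SD, n = 3 each), followed by Aplp1 at 1037 ± 291 and 1126 ± 46.4 TPM in KO and WT. Prnp stood at 776 ± 235 TPM in KO and 927 ± 10.8 TPM in WT, and Aplp2 at 422 ± 74.2 and 501 ± 74.2 TPM in KO and WT. The order App, Aplp1, Prnp, Aplp2, Nrcam held within each of the 6 libraries. Nrcam stood at 166 ± 37.1 TPM in KO and 192 ± 13.1 TPM in WT, and Ncam1 at 123 ± 6.32 and 124 ± 9.67 TPM in KO and WT. Lrp1 stood at 80.1 ± 22.3 TPM in KO and 153 ± 44.9 TPM in WT, so that its mean lay below that of Ncam1 in KO and above it in WT. L1cam stood at 69.3 ± 9.62 TPM in KO and 78.5 ± 2.37 TPM in WT, and Alcam at 63.5 ± 14.2 and 75.5 ± 4.79 TPM in KO and WT. Ptprf was the least abundant at 40.7 ± 14.0 TPM in KO and 49.5 ± 1.34 TPM in WT. Between Nrcam and Ncam1, between Ncam1 and Lrp1, between Lrp1 and L1cam and between L1cam and Alcam the order was turned in at least 1 library, and their ranges overlapped. The large SD in KO comes with KO replicate 1, which had the lowest TPM of the 6 libraries for 8 of the 10 genes. Without it the KO means were 1638 TPM for App, 911 TPM for Prnp and 48.5 TPM for Ptprf.

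**Figure D1:**
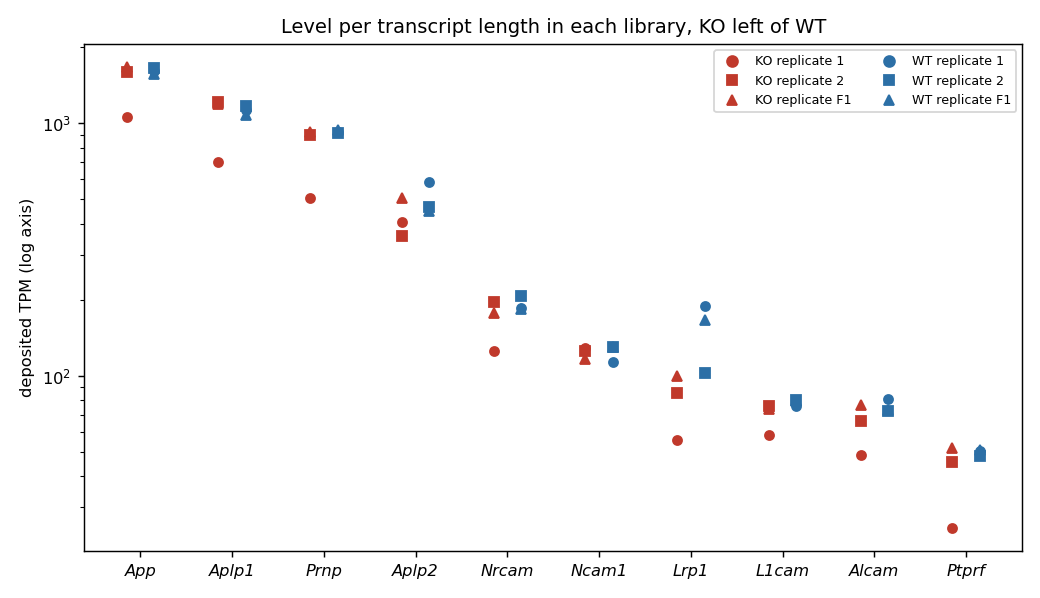
Deposited TPM (log axis) of the 10 genes in each library, ordered by mean, with KO (red) left of WT (blue) and symbols for replicates 1 (circle), 2 (square) and F1 (triangle). App lies between 1056 and 1672 TPM and Ptprf between 24.9 and 51.5 TPM, and the circle of KO replicate 1 lies lowest for most genes.

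No member passed the test between KO and WT. edgeR called 0 of 10, adjusted over all 18956 genes (0.00528% of all genes tested were called), with adjusted p between 0.747 and 0.976. At an unadjusted p under 0.05 there were also 0 of 10, against 6.38% of all genes tested, and DESeq2 called 0 of 10, against 0.403%. Log2 fold changes lay between −0.12 (Lrp1) and 0.21 (Ncam1), 7 above 0 and 3 below. Their median was 0.09, beside 0.00 over all genes tested. The 95% interval was −0.23 to 0.64 for Ncam1, and the intervals of the other 9 genes lay between −0.34 and 0.39. The sign of small values depended on scaling. With scaling to library totals only, where all genes tested had a median of −0.17, 1 of the 10 lay above 0 (median −0.08), and on log2(TPM + 1), where the median of all genes was −0.24, 0 of 10 did (median −0.24). Without WT replicate F1, which leaves the comparison to the males, the members lay between −0.17 (Lrp1) and 0.39 (Ncam1), and none was called. Relative to the median of all genes, the members' median was 0.09 with TMM, 0.09 with library totals and 0.00 on log2(TPM + 1).

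**Figure D2:**
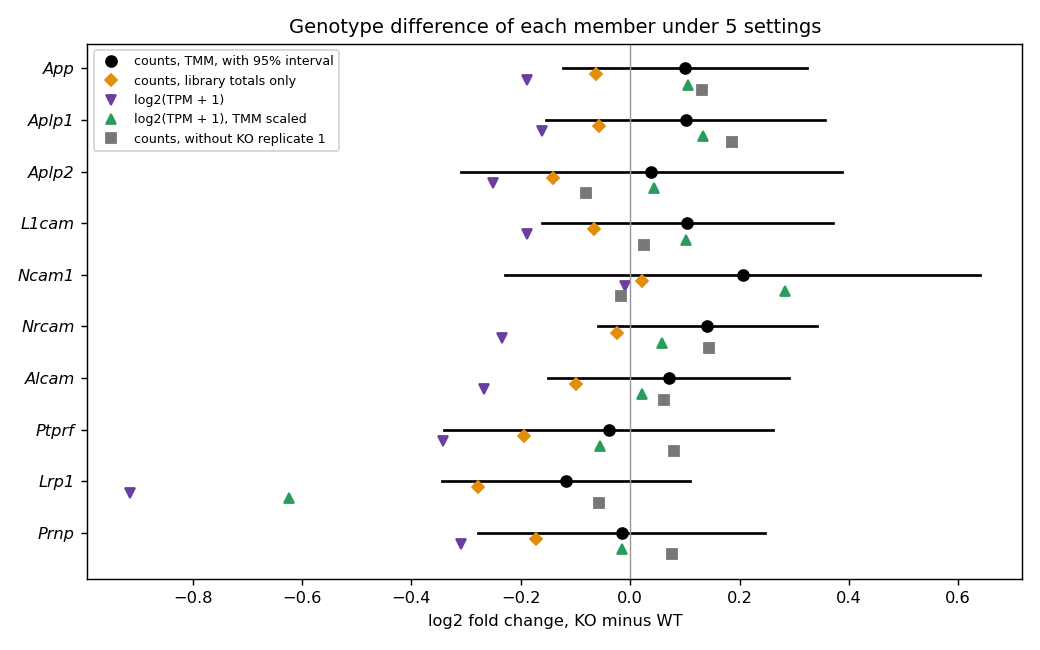
Log2 fold change, KO minus WT, of the 10 genes: black points with 95% intervals are the edgeR estimates on TMM-scaled counts, and coloured symbols are 4 other settings. Every black interval spans 0, the settings without TMM scaling (orange, purple) lie further left, and Lrp1 on both TPM scales lies far left of its count estimate.

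In the APP family, App had the smallest spread of the members. It stood at 2241, 2363 and 2286 CPM in KO and 2150, 2205 and 2071 CPM in WT. All 3 KO values lay above the WT values, which was true of 1 of the 10 members in this direction and of 6.61% of all genes tested, while 0 of 10 lay lower without overlap (7.32% of all genes). The log2 fold change was 0.10 (SE 0.09, edgeR adjusted p = 0.811), and 0.13 without KO replicate 1. On TPM after TMM scaling the KO values also lay above the WT values, as for 6.66% of all genes tested. On deposited TPM and on library totals alone the genotypes overlapped, and on library totals the log2 fold change was −0.06. A list of 10 neuron markers took a summed 11153, 9103 and 8464 CPM in KO and 8035, 8514 and 7246 CPM in WT. All 10 markers were tested, none was at 0 and 6 lay above 0 in log2 fold change (median 0.21). Neither edgeR nor DESeq2 called any, and 4 of the 10 had an unadjusted p under 0.05 in edgeR (6.38% of all genes tested). For 2 of the 10 the KO values lay above the WT values without overlap (6.61% of all genes). The part of these markers in the App values was not tested.

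Aplp1, a paralog found mainly in neurons, stood at 1104, 1332 and 1214 CPM in KO and 1157, 1160 and 1086 CPM in WT. KO replicate 1 lay within the WT range and the other 2 KO libraries above it (log2 fold change 0.10, SE 0.11, edgeR adjusted p = 0.826). The value was 0.19 without KO replicate 1 and 0.031 without KO replicate 2. Aplp2, the widely expressed paralog, stood at 681.7, 495.3 and 588.5 CPM in KO and 644.5, 551.6 and 525.3 CPM in WT. Its KO libraries held both the highest and the lowest value of the 6, and its log2 fold change of 0.04 (SE 0.15, adjusted p = 0.951) became −0.08 without KO replicate 1.

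Within the APP family, the share of App was close to constant and that of Aplp2 varied more. App gave 48.9%, 50.5% and 49.6% of the summed TPM of the 3 paralogs in KO replicates 1, 2 and F1, and 48.5%, 50.2% and 50.8% in WT replicates 1, 2 and F1. The means were 49.7% ± 0.82 in KO and 49.8% ± 1.20 in WT (SD, n = 3 each). This share does not depend on library scaling, and the difference of −0.18 percentage points was within the spread (exact two-sided permutation p = 0.9, where 3 against 3 cannot go below 0.1). Aplp2 gave 18.7%, 11.3% and 14.9% in KO and 17.6%, 14.2% and 14.5% in WT (exact permutation p = 1), and Aplp1 gave 32.4%, 38.2% and 35.5% in KO and 33.9%, 35.6% and 34.7% in WT (exact permutation p = 0.8). The Aplp2 share was highest in replicate 1 of both genotypes and lowest in KO replicate 2, where Aplp1 had its highest share.

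**Figure D3:**
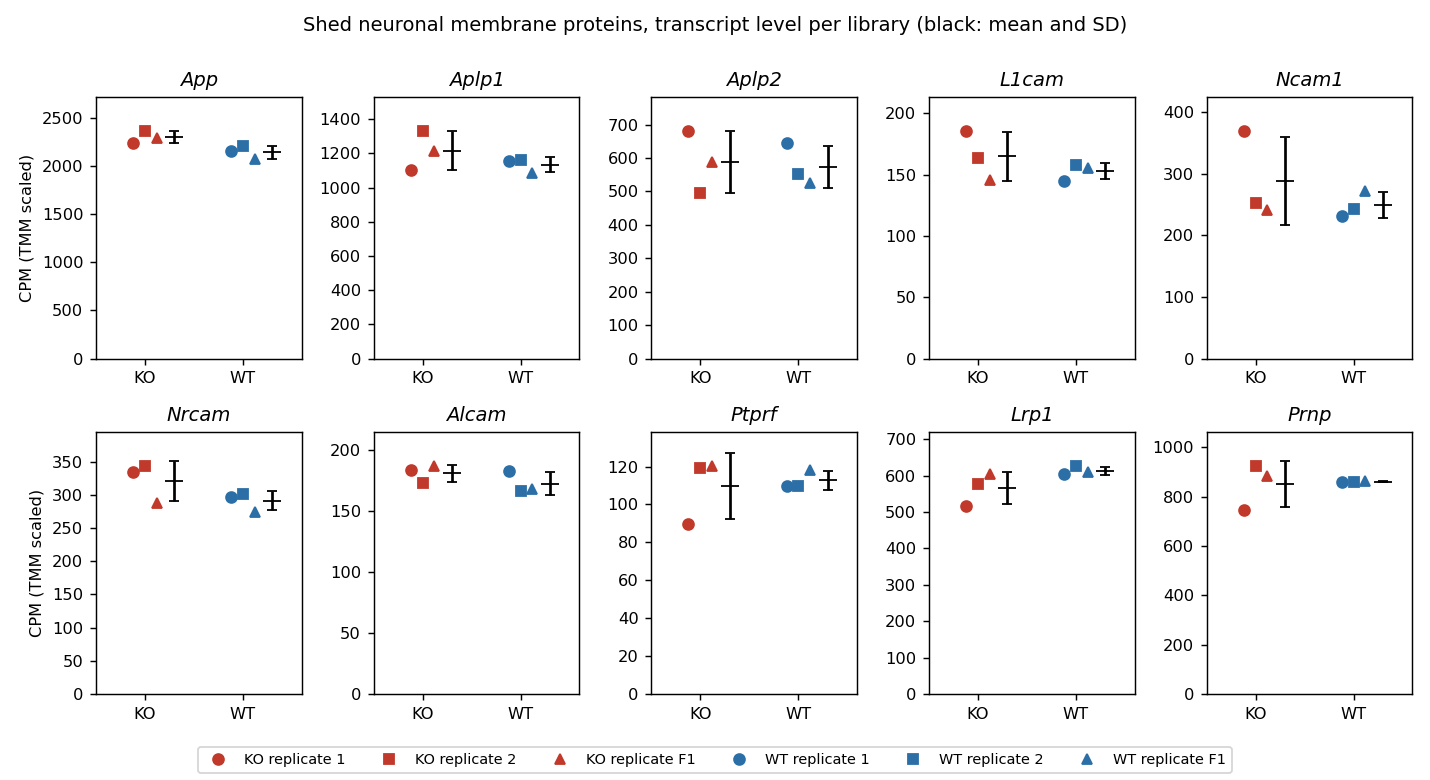
CPM with TMM scaling of each gene in each library, KO (red) left of WT (blue), with symbols for replicates 1 (circle), 2 (square) and F1 (triangle) and the mean and SD in black. KO and WT overlap for 9 of the 10 genes, App being the exception, and KO replicate 1 (red circle) is the highest point for Aplp2, L1cam and Ncam1 and the lowest for Ptprf, Lrp1 and Prnp.

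Among the adhesion genes, Ncam1 had the largest log2 fold change, and it rested on KO replicate 1. NCAM1 is the neural cell adhesion molecule that carries polysialic acid. It stood at 369.4, 252.9 and 241.3 CPM in KO and 230.8, 242.5 and 272.2 CPM in WT. KO replicate 1 lay above all other libraries and the remaining KO values lay inside the WT range. The log2 fold change was 0.21 (SE 0.18, edgeR adjusted p = 0.803) with all libraries and −0.02 without KO replicate 1. L1cam, which guides axon growth and lies on the X chromosome, was also highest in KO replicate 1. It stood at 185.8, 163.5 and 145.6 CPM in KO and 145.2, 157.8 and 155.6 CPM in WT (0.10, SE 0.11, adjusted p = 0.827). KO replicate 2 lay above all WT libraries too, and KO replicate F1 lay inside their range. The log2 fold change of L1cam was 0.02 without KO replicate 1.

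Nrcam, a member of the L1 family found at nodes of Ranvier, stood at 334.2, 343.5 and 287.4 CPM in KO and 296.4, 302.1 and 275.0 CPM in WT. It had the smallest p of the members (log2 fold change 0.14, SE 0.08, edgeR adjusted p = 0.747). Both male KO libraries lay above all WT libraries, the female KO library lay inside their range, and the log2 fold change was also 0.14 without KO replicate 1. Alcam, an adhesion protein of axon bundles and leukocyte contacts, stood at 183.4, 173.5 and 186.9 CPM in KO and 183.1, 166.8 and 168.0 CPM in WT, with overlap (0.07, SE 0.09, adjusted p = 0.863). It was 0.062 without KO replicate 1.

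Ptprf, Prnp and Lrp1 lay lowest in KO replicate 1. Ptprf stood at 89.8, 119.3 and 120.2 CPM in KO and 109.9, 110.0 and 118.2 CPM in WT. With KO replicate 1 its log2 fold change was −0.04 (SE 0.13, edgeR adjusted p = 0.944), and without it 0.08. Prnp stood at 747.3, 924.1 and 885.9 CPM in KO and 859.6, 859.7 and 864.4 CPM in WT. Its WT values were nearly identical and the KO values lay on both sides of them (−0.02, SE 0.11, adjusted p = 0.976), with 0.08 when KO replicate 1 was left out.

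Lrp1 was the gene for which the choice of unit mattered most. On the count scale it stood at 517.5, 576.2 and 604.4 CPM in KO and 603.8, 625.7 and 610.3 CPM in WT. KO replicate F1 just overlapped WT replicate 1, and the log2 fold change was −0.12 (SE 0.09, edgeR adjusted p = 0.792), or −0.06 without KO replicate 1. On library totals alone its KO values lay below the WT values, as for 16.8% of all genes tested (log2 fold change −0.28). On the deposited TPM scale it stood at 55.7, 85.1 and 99.4 TPM in KO and 188.6, 102.3 and 166.8 TPM in WT. The genotypes did not overlap there, as was the case, KO lower, for 21.1% of all genes tested. After TMM scaling of the TPM values, where 7.12% of all genes lay lower without overlap, Lrp1 still did, at 81.4, 85.5 and 92.7 in KO and 171.1, 93.2 and 149.5 in WT. The log2 fold change was −0.91 on log2(TPM + 1) and −0.62 after that scaling, and limma-trend called neither (adjusted p = 0.557 and 0.688). This scaling was chosen after seeing the data.

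Part of the gap between the scales was shared by all genes. TPM per CPM, divided by the WT mean of the same gene, had a median of 0.63, 0.90 and 0.97 in KO replicates 1, 2 and F1 and of 0.993 to 1.01 in the WT libraries (10246 genes averaging 10 CPM or more). A further part lay in the transcript length behind the TPM of Lrp1. The length implied by the count and FPKM of a library, set so that genes with 1 annotated transcript match their annotation, was 13.6, 14.3 and 13.8 kb for Lrp1 in KO replicates 1, 2 and F1. It was 7.50, 14.3 and 8.66 kb in WT replicates 1, 2 and F1. WT replicates 1 and F1 therefore had the short length, and WT replicate 2 was like the KO libraries in both length and TPM. GENCODE M21 lists 10 Lrp1 transcripts, of which the full coding transcript has 89 exons and 14.9 kb and the next longest, with a retained intron, 3.44 kb. The longest implied length was 1.91 times the shortest, a ratio reached by 0.752% of the 10240 genes that averaged at least 10 CPM and had FPKM above 0 in all libraries. For App and Prnp the implied lengths were nearly constant at 3.11 kb and 2.18 kb. The TPM per CPM of App still stood at 0.471, 0.679 and 0.731 in KO and 0.752, 0.748 and 0.761 in WT, so its deposited TPM was lowest in KO replicate 1 although its CPM was not. What sets the shorter length of Lrp1 was not tested.

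**Figure D4:**
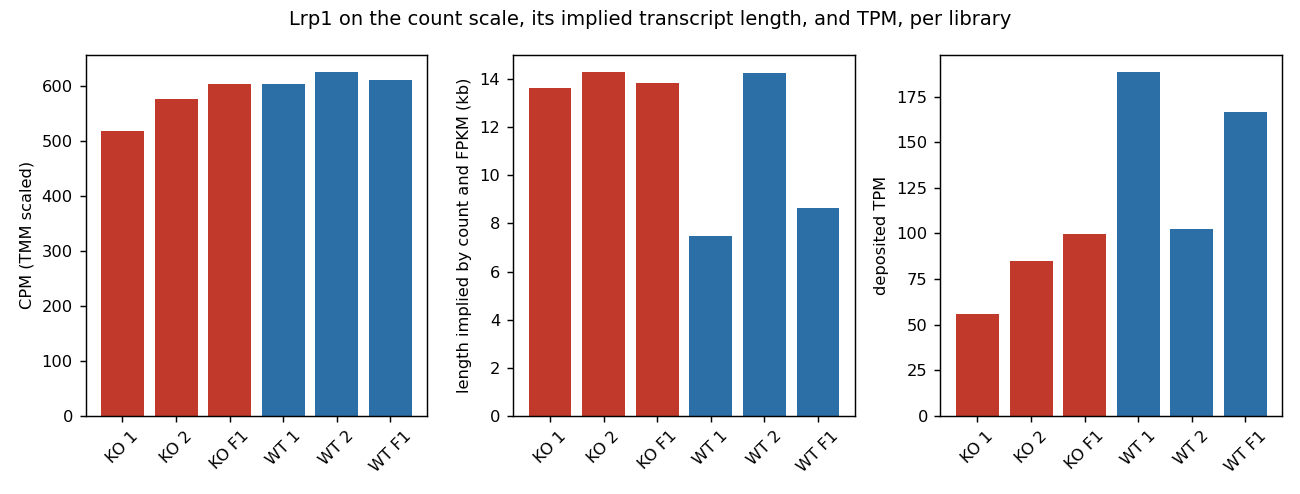
Lrp1 in each library as CPM with TMM scaling (left), as the transcript length in kb implied by count and FPKM (middle) and as deposited TPM (right), with KO in red left of WT in blue and 1 bar per library. The bars differ little in CPM (517.5 to 625.7), while WT replicates 1 and F1 have short lengths (7.50 and 8.66 kb) and the highest TPM (188.6 and 166.8).

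The spread between libraries of 1 genotype was small for most members. The SD of log2 CPM within genotype lay between 0.04 (App) and 0.25 (Ncam1) with a median of 0.11, beside 0.16 over the 10246 tested genes with a mean of at least 10 CPM. The members lay well above that limit, with KO means from 110 CPM (Ptprf) to 2297 CPM (App). The spread was not compared with that of genes at like levels. Overlap of other genes with the members was read from gene positions, and shared reads were not measured. Arhgap4, which overlaps L1cam, stood at 2.15% of the L1cam level, and the gene model Gm44637 at 0.046% of Prnp. The other overlapping genes did not pass the filter on low counts.

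No member passed the test between female and male libraries. edgeR called 0 of 10, against 0.0422% of all genes, and 0 of 10 had an unadjusted p under 0.05, against 4.58%. DESeq2 called 0 of 10 as well. The smallest p was that of Nrcam, with a log2 difference of −0.18 (SE 0.09), female minus male (edgeR adjusted p = 0.941). L1cam, the X-linked member, had a log2 difference of −0.11 (SE 0.12, adjusted p = 0.947). The test of whether the genotype difference itself differed between the sexes called 0 of 10 with edgeR and with DESeq2, against 0.0739% of all genes in edgeR, and 0 of 10 at an unadjusted p under 0.05, against 7.42%. The largest estimate was that of Ncam1 at −0.57 on the log2 scale (edgeR adjusted p = 0.836), which holds the high value of the male KO replicate 1. Each genotype has 1 female library, and this fit leaves 2 residual degrees of freedom.

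Genes that cut, bind or accompany these proteins were read from lists, and edgeR and DESeq2 called 0 members of each list. Over all 18956 genes tested, 9364 lay above 0 and 9592 below, and counts above 0 depend on the scaling as they did for the members. Of the 12 secretases and sheddases, 6 lay above 0 and 6 below (median log2 fold change −0.01). Adam17 and Adam10, described above, had the smallest p, and none had an unadjusted p under 0.05. Of 11 tested binders of the APP tail and sorting partners, 8 lay above 0 (median 0.11). Dab1, an adaptor of the reelin pathway that also binds the tail of APP, stood at 144.6, 119.2 and 103.7 CPM in KO and 94.5, 96.8 and 95.3 CPM in WT (0.35, SE 0.12, edgeR adjusted p = 0.735). Its KO values lay higher without overlap, as for 6.61% of all genes tested. It was highest in KO replicate 1, and 0.24 without that library. Sorl1, a sorting receptor of APP, was at 0.14 (SE 0.10), or 0.057 without WT replicate F1.

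Of 13 partners of L1 and NCAM, 9 lay above 0 (median 0.07). Cntn2, a contactin that binds L1 family proteins on axons, stood at 113.5, 146.8 and 142.9 CPM in KO and 182.1, 156.8 and 183.1 CPM in WT (−0.37, SE 0.13, edgeR adjusted p = 0.735). Its KO values lay lower without overlap, as for 7.32% of all genes tested. Cntn2 was lowest in KO replicate 1, and at −0.27 without that library. St8sia2, which adds polysialic acid to NCAM1, stood at 18.7, 8.05 and 9.98 CPM in KO and 8.20, 9.38 and 7.45 CPM in WT (0.54, SE 0.30). Its highest value was again in KO replicate 1, without which the log2 fold change was 0.11. Of 15 LAR-type phosphatases and synaptic partners 13 lay above 0 (median 0.11), with the synaptic organizer gene Slitrk1 at 0.24 (SE 0.10) and the liprin gene Ppfia4 at −0.32 (SE 0.13). KO and WT overlapped in Slitrk1 and Ppfia4. Of the 15, the KO values lay higher without overlap for 3, against 6.61% of all genes tested, and lower for 0, against 7.32%.

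Of 11 genes of the LDL receptor family and its ligands 5 lay above 0 (median 0.00). A2m, a protease inhibitor that LRP1 takes up, stood at 6.91 ± 0.45 CPM in KO and 9.03 ± 2.49 CPM in WT (SD, n = 3 each; log2 fold change −0.35, SE 0.17), and Clu, an apolipoprotein, was at 0.15 (SE 0.11). Of 5 tested genes of the prion family and its partners 4 lay above 0 (median 0.18). Grm5, a glutamate receptor that interacts with the prion protein, was at 215 ± 14.2 CPM in KO and 186 ± 10.2 CPM in WT (0.21, SE 0.09), and the prion-like gene Sprn at 0.18 (SE 0.12). Of 16 other shed membrane or matrix proteins of the nervous system 14 lay above 0 (median 0.11). Ncan, a proteoglycan of the matrix, was at 224 ± 26.4 CPM in KO and 184 ± 19.2 CPM in WT (0.28, SE 0.09). In CPM the KO values lay lower without overlap for A2m, as for 7.32% of all genes tested, and higher for Grm5, as for 6.61%. On deposited TPM the genotypes overlapped for both. KO and WT overlapped in CPM for Clu, Sprn and Ncan. Leaving out WT replicate F1 moved A2m to −0.16, Clu to 0.28 and Sprn to 0.075, and leaving out KO replicate 1 moved Sprn to 0.28. Adjusted p in edgeR was 0.735 to 0.779 for the genes named from these last 6 lists.

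The genes whose log2 CPM was most like that of App over the 6 libraries, among 10245 others with a mean of at least 10 CPM, were Maz (Pearson r = 0.997), Tigd2 (0.992) and Syt5 (0.982). For L1cam they were Parm1 (0.998), Hapln1 (0.992) and Gabra5 (0.992). With 6 libraries and so many genes, values of this size describe these libraries only.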

How the data were processed

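The authors deposited, per the file headers, whole-number counts, TPM and FPKM per gene and library. RNA was isolated with a Tri-zol type reagent and messenger RNA was made into libraries, per the labels' protocols. The tools named are Trimmomatic 0.36, bedtools 2.26.0 and FastQC 0.11.2, per the submitters' processing notes. Aligner, counter, strand setting and build were not given in the sources used here. Of the gene IDs, 99.6% matched GENCODE M21 (GRCm38) and 94.2% of these had its coordinates. Deposited counts were tested with edgeR 4.0.16 (R 4.3.3; filterByExpr, TMM, robust quasi-likelihood, genotype and sex as terms, Benjamini-Hochberg threshold 0.05), an analysis tested on simulated data. DESeq2 1.42.0 and limma 3.58.1 served as alternatives. Deposited TPM values gave levels and shares, and deposited FPKM values gave implied lengths. The members and lists were chosen with earlier results of these data known. Named genes were all members, Adam17, Adam10, the 2 genes of each partner list with the smallest p (up to 4 had any passed) and the 3 genes most like App and L1cam. An entry of the partner lists is not analysed here, and a gene that the naming rule picked is not reported here. Depth was 35114426 to 54421330 counts, and every member had at least 2585 counts in each library. Counting error was not compared with the spread between libraries, and it weighs more for low genes such as Sim1.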

Additional observations from a re-analysis of the deposited data

How the results depend on the processing

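In none of the 18 alternatives, 1 of them chosen after seeing the data (log2(TPM + 1) after TMM scaling), did a member pass the threshold for genotype, and the sex and interaction counts stayed at 0 wherever they were recomputed. The count of all genes called, 1 as reported, was 75 with DESeq2, 4 without a filter on low counts, with log2(TPM + 1) and with voom quality weights, 3 with log2(TPM + 1) after TMM scaling, 3 without the sex term, 18 in males only and 0 with the replicate block, and 0 to 20 when each library was left out in turn. The members' median, 0.09 as reported, was −0.083 with library totals, −0.24 with log2(TPM + 1), 0.051 with log2(TPM + 1) after TMM scaling, 0.067 with voom, 0.050 in males only and 0.050 to 0.10 leaving out each library. With library totals the direction turned for App (−0.063), Aplp1 (−0.056), Aplp2 (−0.14), L1cam (−0.067), Nrcam (−0.024) and Alcam (−0.10). With log2(TPM + 1) it turned for App (−0.19), Aplp1 (−0.16), Aplp2 (−0.25), L1cam (−0.19), Ncam1 (−0.010), Nrcam (−0.23) and Alcam (−0.27). With voom it turned for Aplp2 (−0.10), Ptprf (0.036) and Prnp (0.042), and in males only for Aplp2 (−0.023). Leaving out each library gave −0.081 to 0.18 for Aplp2, −0.016 to 0.39 for Ncam1, −0.15 to 0.081 for Ptprf and −0.10 to 0.077 for Prnp, which turned, while the other 6 members kept their direction. Because the model holds sex, a fit without WT or KO replicate F1 rests on the males. The App share difference, −0.18 points, was 0.34 on counts and 0.32 in males only, and −0.85 to 0.30 leaving out each library. The cause of these turns was not tested. Same-numbered libraries of the 2 genotypes deviated with correlations of 0.07, 0.08 and 0.19, and 4 of 6 correlated best with their own number, and no label ties these numbers to a shared litter, day or animal. With 3 libraries a genotype, the lack of a call does not exclude differences of the sizes inside the 95% intervals given above. These intervals are not adjusted for the number of genes tested, and larger differences could also go uncalled.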

Other observations

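In all 10 members TPM per CPM was lowest in KO replicate 1, by 18.0% (Aplp2) to 34.9% (Nrcam) relative to the lowest of the other 5 libraries. This was not particular to the members. Over 10246 genes, TPM per CPM divided by the WT mean of the same gene had a median of 0.63 in KO replicate 1. The next lowest median was 0.90, in KO replicate 2. Besides Lrp1, 3 members also varied between libraries in implied transcript length. The implied transcript length of Aplp2 was 2.47, 2.92 and 2.66 kb in KO replicates 1, 2 and F1 and 2.58, 2.75 and 2.77 kb in WT replicates 1, 2 and F1. Ncam1, whose isoforms differ in their membrane anchor, had 4.21, 4.28 and 4.72 kb in KO and 4.78, 4.36 and 4.95 kb in WT, and Nrcam had 3.94, 3.69 and 3.71 kb in KO and 3.74, 3.40 and 3.55 kb in WT. The longest length was 1.18, 1.18 and 1.16 times the shortest for Aplp2, Ncam1 and Nrcam, beside a median ratio of 1.06 over all genes compared, for which 1.27 was the 90th percentile, and KO and WT overlapped in all 3. For L1cam, Alcam, Ptprf and Aplp1 the ratio was at most 1.08.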
